A study of Mus musculus with 4 samples.

Results

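Nef-sp and its relatives among the DEDDh exonucleases form a group of 10 genes, chosen by name with earlier results of these data known. They are Nef-sp itself, listed as 2610020H08Rik and also known as Rexo5, the other REX-type genes Rexo1, Rexo2 and Rexo4, the ISG20-like genes Isg20, Isg20l2 and Aen, and the ERI family genes Eri1, Exod1 (now Eri2) and Eri3. All 10 were found in the deposited table, out of 13168 genes with a row in a gene category. The testes of C57Bl/6J mice at postnatal day 60 were sequenced as total RNA, with 2 libraries of Nef-sp-/- and 2 libraries of Nef-sp+/- animals. Both genotypes carry the Cas9 nickase-made allele, which lacks 23 bp of Nef-sp, on both copies of the gene or on a single copy, and wild-type testes were not analysed here. The study's text on this experiment names wild-type controls, but its methods and the labels give heterozygous ones, and every ratio here is relative to the libraries labelled Nef-sp+/-. The labels do not say whether the libraries came from separate animals, so that p-values measure only the spread between these libraries. Between 20659865 and 34442517 reads per library were counted, the largest number in Nef-sp+/- replicate 2.

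DEDDh exonucleases remove nucleotides from the 3′ end of nucleic acids, using divalent metal ions held by conserved acidic residues and a histidine in the active site. Members of the family trim the ends of ribosomal RNA and histone mRNA, clear very short RNA fragments, or act in the response to viruses and to DNA damage. Nef-sp additionally carries RNA-recognition motifs and is known for its expression in the testis.

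The deleted bases of Nef-sp are shown here because they set what the mutant transcript can still encode and which reads it can still give. Nef-sp (ENSMUSG00000030924.9) spans chr7:126937520-126992457 on the plus strand of mm9, and the deletion lies in coding exon 6 of the 13 exons of transcript ENSMUST00000033218.8, at chr7:126961897-126961985. When every stretch of 23 bases in this exon was removed in turn, 2 distinct products put a stop codon in place of an aspartate, and 1 of them also changed the codon before the stop to another codon of the same amino acid. This product is shown because it holds the sequence of the study's genotyping primer across the deletion. It arises from 3 placements of the deletion, of which the leftmost, from 126961947 to 126961969, is in capitals in the reference exon, and in the joined exon the capitals mark the new stop codon.
Reference exon: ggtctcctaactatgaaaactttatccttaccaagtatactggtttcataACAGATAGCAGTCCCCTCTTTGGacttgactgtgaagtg
Exon without the 23 bases: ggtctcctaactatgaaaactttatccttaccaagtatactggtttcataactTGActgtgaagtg
The change was D220*, counted from the first residue, which left 219 of the 479 residues annotated for this transcript. The same change was found in the longest coding transcript of Nef-sp, ENSMUST00000106520.1, which has 2490 bases and an annotated protein of 759 residues. Only reads with a perfect match to the genome were counted, so that a read across the joined bases was lost in either genotype. Along this longest transcript, 72 of 2441 positions of a 50-base read touched the deleted bases, or 2.95%. Within single exons this was so for 39 of 1510 positions, or 2.58%. Intron reads do not touch the deletion.

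Nef-sp and Exod1 lie head to head, as the map of the locus shows. Exod1 (ENSMUSG00000030929.9) occupies chr7:126912193-126937572 on the minus strand of mm9, and its first exon shares 53 bases, from 126937520 to 126937572, with the first exon of Nef-sp. RefSeq places the starts differently, with a gap between the most upstream start of each gene, and the stretch in this gap is shown because it lies upstream of both. On the plus strand of GRCm38.p6, which is a later build than that of the counts, it has 63 bases at chr7:119794059-119794121, and the capitals mark a GC box, GGGCGG.
Between the starts of Exod1 and Nef-sp: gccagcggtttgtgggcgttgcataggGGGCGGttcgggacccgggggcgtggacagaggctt
Of its bases, 69.8% were G or C, and it held 6 CpG dinucleotides. The promoter windows in RefSeq run from 250 bases before to 50 bases after a start, and 9 of the 10 genes have one, Eri1 being the exception. The window of Nef-sp had 68.7% G+C and 37 CpG, and that of Exod1 63.3% and 32, against medians of 52.7% and 7 over 32817 windows. Searched on both strands, GGGCGG was in the windows of both genes, in those of 5 of the 9 genes with a window, and in 35.6% of all windows. The member counts are of genes and the percentages of windows, of which Nef-sp has 3. The ETS core CCGGAAG was in the window of Nef-sp, not in that of Exod1, in those of 4 of these 9 genes and in 8.86% of all windows. Neither of these windows held the CCAAT box, found in 37.4% of all windows, the TATA box sequence TATAAA, found in 13.6%, or the cAMP response element TGACGTCA, found in 1.79%. These are matches of letters and not measured sites.

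**Figure D1:**
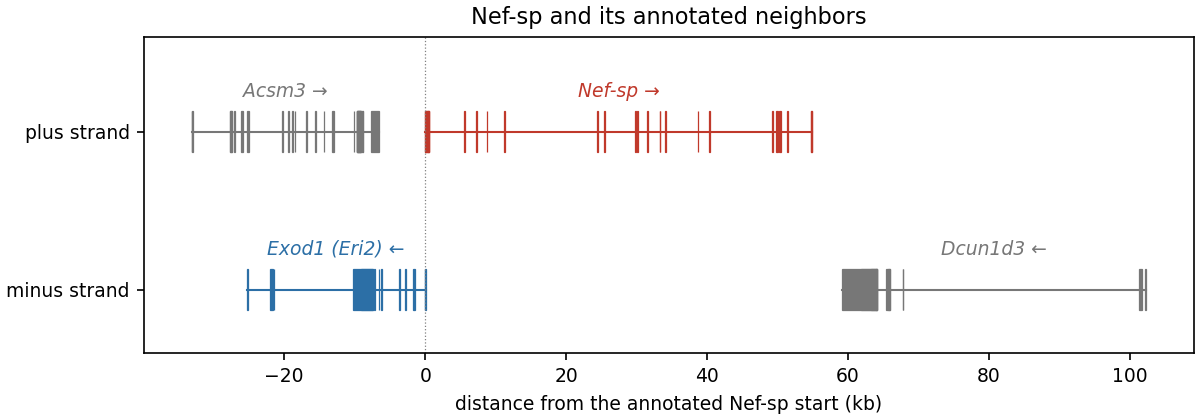
Nef-sp and its annotated neighbors on mm9, by distance from the annotated start of Nef-sp in kb (x axis), with genes of the plus strand above those of the minus strand. Boxes are exons merged over transcripts and arrows give the direction of transcription, with the first exons of Nef-sp and Exod1 (Eri2) sharing 53 bases at the dotted line and Acsm3 lying across Exod1 on the opposite strand.

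Nef-sp was the only one of the 10 genes whose exon sense reads changed with the genotype. Reads on the coding strand of Nef-sp exons numbered 1601 and 2404 in the Nef-sp+/- libraries, against 352 and 420 in those of Nef-sp-/-. Normalized to the effective library size, these were 1843 and 1693 against 407 and 497, so that both Nef-sp-/- libraries lay far below both controls. The log2 fold change was -1.97 (SE 0.0921, 95% interval -2.17 to -1.76, adjusted p = 4.12e-06 by the quasi-likelihood test of edgeR, with the Benjamini-Hochberg method applied to 10728 exon sense features). The ratio of 0.256 had a 95% interval of 0.222 to 0.295. Exon reads of Nef-sp remained in Nef-sp-/- testes at that ratio to Nef-sp+/- testes, which also carry the deletion on a single copy. The ratio is thus not the share of reads left per deleted copy, which was not measured. The 2.95% of read positions is what the deletion removes from the longest transcript of a deleted copy, and is not on the same scale as the ratio. In a bulk tissue, fewer cells that express a gene and less of its RNA per cell cannot be told apart. This was the 1 feature called over all exon sense features, or 0.00932%, and 1 of 10 of the exonuclease genes. DESeq2 called 2 features in all, and the count rose to 41 without Nef-sp+/- replicate 1 and to 252 without Nef-sp+/- replicate 2, with Nef-sp the single exonuclease gene called in each.

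The other 9 genes had exon sense log2 fold changes between -0.11 and 0.07, with a median of -0.04, against -0.000224 over all features tested. Of these, 3 were above 0 and 6 below, none had an unadjusted p below 0.05, and DESeq2 called none of them. The smallest adjusted p was 0.956 by edgeR's quasi-likelihood test. Their 95% intervals together ran from -0.38 to 0.37, or ratios of 0.771 to 1.29, which bounds the differences that these libraries leave possible. The direction of Rexo1, Rexo4, Isg20, Isg20l2, Aen and Exod1 turned in at least 1 alternative fit, and that of Rexo2, Eri1 and Eri3 did not. The normalized counts of the genotypes did not overlap for 3 of the 10 genes, Nef-sp, Rexo2 and Eri1, each lower in Nef-sp-/-, and this was so for 34.5% of all exon sense features, close to the share among the exonucleases.

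**Figure D2:**
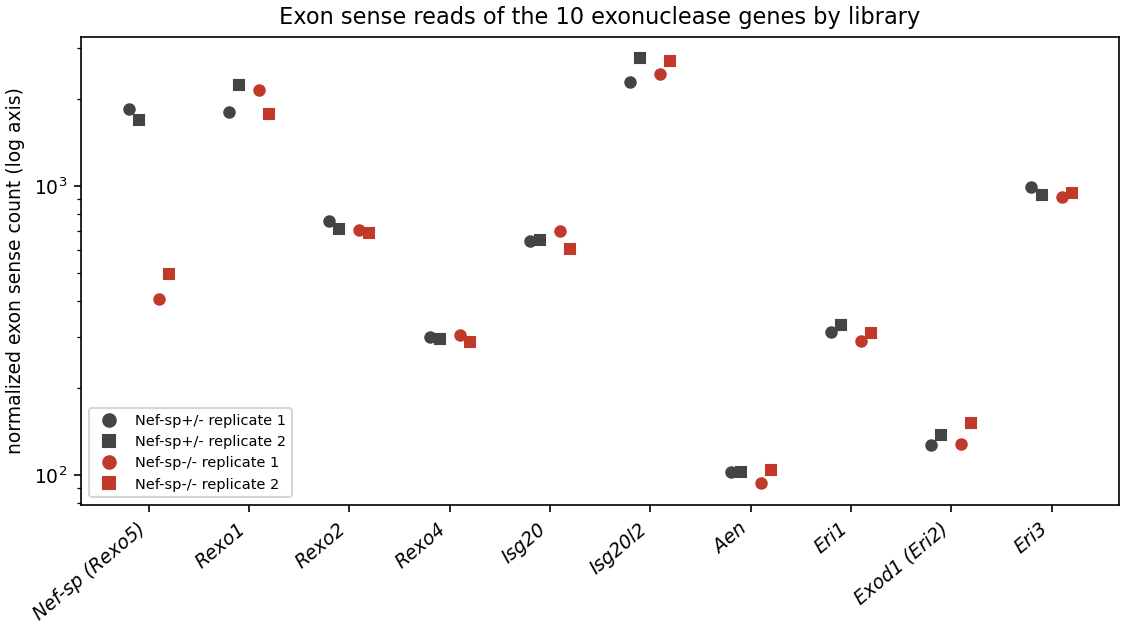
Normalized exon sense counts (y axis, log scale) of the 10 exonuclease genes (x axis) in each of the 4 libraries, with circles for replicate 1 and squares for replicate 2. The Nef-sp-/- libraries (red) are at 407 and 497 for Nef-sp, below the Nef-sp+/- libraries (grey) at 1843 and 1693, and lie near them for the other genes. Counts are not divided by length and do not rank the genes.

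Rexo1 (chr10:80003671-80024305, minus strand of mm9), whose protein binds elongin A and is linked to transcription elongation, had normalized counts of 1799 and 2225 in Nef-sp+/-, against 2146 and 1769 in Nef-sp-/-. The libraries of each genotype were further apart than the genotypes, and the log2 fold change was -0.04 (SE 0.106). Rexo2 (chr9:48276619-48288716, minus strand), the oligoribonuclease that clears very short RNAs in mitochondria, was at 756 and 707 in Nef-sp+/-, against 703 and 685 in Nef-sp-/-. The controls were higher, but the gap between the nearest libraries was small, with a log2 fold change of -0.07 (SE 0.0715, 95% interval -0.23 to 0.09). Rexo4 (chr2:26809083-26819906, minus strand), a nucleolar homolog of the yeast ribosome biogenesis factor Rex4, was at 300.4 and 295 in Nef-sp+/-, against 306 and 288 in Nef-sp-/-. The 4 libraries of Rexo4 interleaved, with a log2 fold change of -0.00 (SE 0.0919).

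Isg20, an exonuclease induced by interferon with antiviral activity, had normalized counts of 645 and 652 in Nef-sp+/-, against 696 and 606 in Nef-sp-/-. The Nef-sp-/- libraries lay on either side of the controls, and the log2 fold change was 0.01 (SE 0.081). Isg20l2 (chr3:87734236-87744608, plus strand of mm9), a nucleolar enzyme of ribosomal RNA maturation, was at 2286 and 2768 in Nef-sp+/-, against 2445 and 2694 in Nef-sp-/-. Both Nef-sp-/- libraries fell between the controls, with a log2 fold change of 0.02 (SE 0.0881). Aen, the apoptosis-enhancing nuclease and a target of p53, was at 102 and 103 in Nef-sp+/-, against 93.5 and 104 in Nef-sp-/-. It had the fewest exon sense reads of the group and the largest SE, 0.145, with a log2 fold change of -0.06. Aen and Isg20 are neighbors on chromosome 7 of mm9, at chr7:86040740-86056095 and chr7:86058310-86065248 on the plus strand, 2214 bases apart.

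Eri1 (chr8:36528319-36558587, minus strand of mm9), which trims histone mRNA and ribosomal RNA ends and limits small interfering RNAs, had normalized counts of 313 and 330.3 in Nef-sp+/-, against 289.9 and 309 in Nef-sp-/-. It had the most negative value of the 9 genes, a log2 fold change of -0.11 (SE 0.0919, 95% interval -0.31 to 0.09, unadjusted p = 0.261 and adjusted p = 0.956 by edgeR's quasi-likelihood test). Exod1, a less studied enzyme of the ERI family that starts next to Nef-sp, was at 127 and 138 in Nef-sp+/-, against 128 and 151 in Nef-sp-/-. The genotypes overlapped, and the log2 fold change of 0.07 (SE 0.136) had a 95% interval of -0.23 to 0.37, so that a fall of the size seen for Nef-sp lay outside it. Eri3 (chr4:117222970-117346902, plus strand), an ERI family member whose RNA substrates are less well known, was at 989 and 932 in Nef-sp+/-, against 915 and 945 in Nef-sp-/-. Its genotypes overlapped too, with a log2 fold change of -0.04 (SE 0.0676), the smallest SE of the group.

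**Figure D3:**
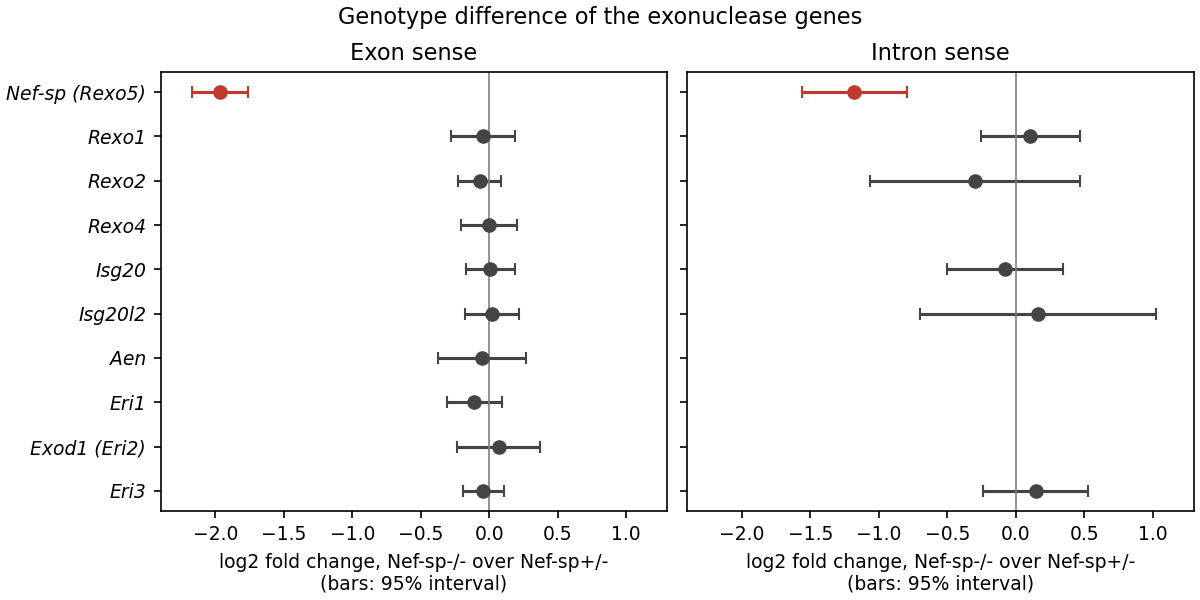
Log2 ratio of the genotypes, Nef-sp-/- to Nef-sp+/- (x axis), for the exonuclease genes (y axis) for exon sense reads (left) and intron sense reads (right), with 95% intervals as bars and genes below an adjusted p of 0.05 in red. Nef-sp stands at -1.97 in exons and -1.18 in introns, and the interval of every other gene tested crosses 0. Rexo4, Aen, Eri1 and Exod1 have no point on the right because they were not tested there.

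Nef-sp was among the most abundant of these mRNAs in the control testis when levels were set per length. Levels are exon sense reads per kb of the longest coding transcript, scaled to all exon sense reads of the library (RPKM). Isg20l2 led at 43.4 and 51.0 in Nef-sp+/-, ahead of Nef-sp at 40.6 and 36.3 and of Rexo2 at 38.6 and 35.1, and the ranges of Nef-sp and Rexo2 overlapped. Isg20 followed at 29.3 and 28.8, Rexo1 at 18.8 and 22.6 and Eri3 at 14.1 and 12.9. Below them were Rexo4 at 7.23 and 6.90, Eri1 at 3.39 and 3.48, Exod1 at 1.99 and 2.11 and Aen at 1.95 and 1.90. All other neighbors in this order had ranges over the 2 libraries that did not overlap, by the smallest margin for Exod1 and Aen. With the mean length of the coding transcripts in place of the longest, the order changed for 4 of the genes, so that it depends on the length used. Nef-sp kept rank 2 at 45.2 RPKM. Rexo1 moved from rank 5 to rank 3 and Rexo2 from rank 3 to rank 5. The mean level of Eri3 in Nef-sp+/- went from 13.5 to 36.0 RPKM at an unchanged rank.

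In Nef-sp-/- testes the RPKM of Nef-sp was 8.65 and 10.7, which moved it from rank 2 to rank 6, between Eri3 at 12.6 and 13.1 and Rexo4 at 7.11 and 6.74. The mean RPKM of Nef-sp was 38.5 ± 3.09 (SD, n = 2) in Nef-sp+/-, against 9.66 ± 1.43 (SD, n = 2) in Nef-sp-/-. These means lay at percentile 81.2 and percentile 58.4 of 11964 features with a transcript length, so that the transcript left in Nef-sp-/- stood above the median feature, at 5.94 RPKM. Nef-sp accounted for 20.4% and 18.03% of the summed RPKM of the 10 genes in Nef-sp+/- and for 5.19% and 6.40% in Nef-sp-/-. The other 9 genes summed to 158.9 and 164.9 RPKM in Nef-sp+/- and to 158.1 and 156.1 RPKM in Nef-sp-/-, a range that narrowly kept the genotypes apart and was far smaller than the difference in Nef-sp.

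**Figure D4:**
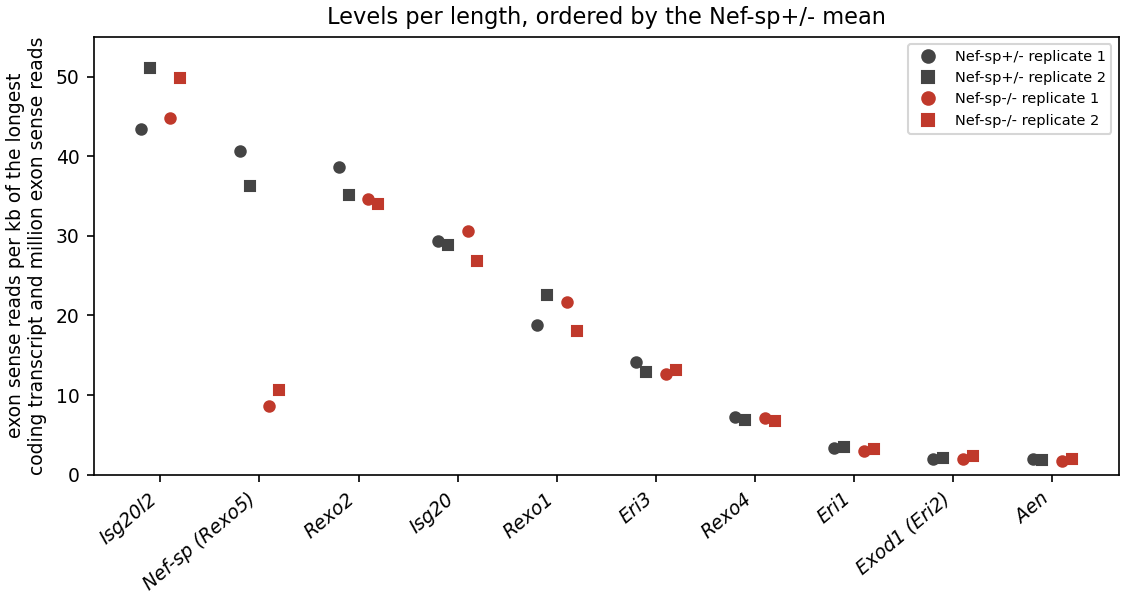
Exon sense reads per kb of the longest coding transcript, scaled to the library (RPKM, y axis), of the 10 exonuclease genes in each library, ordered by the Nef-sp+/- mean (x axis). Nef-sp stands beside Rexo2 in the Nef-sp+/- libraries (grey) and between Eri3 and Rexo4 in the Nef-sp-/- libraries (red).

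Intron reads were examined because they come largely from unspliced RNA and do not touch the deletion. Nef-sp intron sense reads numbered 193 and 250 in Nef-sp+/-, against 64 and 90 in Nef-sp-/-, and both Nef-sp-/- libraries were below both controls. The log2 fold change was -1.18 (SE 0.184, 95% interval -1.56 to -0.80, adjusted p = 0.00845 by the quasi-likelihood test of edgeR among 3403 intron sense features). It was the 1 feature called over these, or 0.0294%, and 1 of the 6 exonuclease genes tested. The call was lost in 4 of 12 alternative fits, among them DESeq2, with the value between -1.19 and -1.14 in these 4. The other 5 genes tested were called by neither tool, none had an unadjusted p below 0.05, and their log2 fold changes ran from -0.30 for Rexo2 to 0.16 for Isg20l2. Their intervals, from -1.06 to 1.03, were wider than those of exons. The normalized intron counts of the genotypes did not overlap for 1 of the 6 genes, Nef-sp, compared with 28% of all intron sense features.

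Rexo1 had 190 and 416 intron sense reads in Nef-sp+/-, against 262 and 231 in Nef-sp-/-, and Eri3 had 107 and 172 against 96 and 144. Isg20 had 67 and 102 against 66 and 58. Rexo2 and Isg20l2 had between 9 and 30 reads in a library, and Eri1 and Rexo4 between 2 and 4. Aen and Exod1 were not listed among the intron sense features. Rexo4 and Eri1 did not pass the filter on low counts.

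The estimated fall of Nef-sp was larger in exon than in intron reads, but the test of this difference did not pass the threshold. Intron reads made up 10.8% (Wilson 95% interval 9.41 to 12.3) and 9.42% (8.37 to 10.6) of its exon and intron sense reads in Nef-sp+/-, and 15.4% (12.2 to 19.2) and 17.6% (14.6 to 21.2) in Nef-sp-/-. Both shares were higher in Nef-sp-/-, and the intervals, which cover counting error only, overlapped between Nef-sp+/- replicate 1 and Nef-sp-/- replicate 1. The exon minus intron difference of the log2 fold changes was -0.78 (SE 0.182, 95% interval -1.15 to -0.41). It had the smallest p of the 3294 genes with both kinds of reads, but did not pass the threshold in edgeR's quasi-likelihood fit (unadjusted p = 9.85e-05 and adjusted p = 0.324 by the Benjamini-Hochberg method). No gene was called in this comparison by edgeR, 0% of those tested, nor by DESeq2, while 101 genes had an unadjusted p below 0.05.

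For the other genes, this difference was -0.18 for Eri3, 0.09 for Isg20, -0.16 for Isg20l2, -0.16 for Rexo1 and 0.23 for Rexo2. The intron share of Rexo1 was 10.8% and 11.6% in Nef-sp+/-, against 12.4% and 13.4% in Nef-sp-/-, and that of Isg20 was 10.7% and 9.92% against 9.87% and 10.2%. Eri3 had 11.1% and 11.5% in Nef-sp+/-, against 10.8% and 15.3% in Nef-sp-/-, so that a single library stood out. Rexo2 ranged from 1.46% to 3.66%, both in Nef-sp-/-. Isg20l2 lay between 0.437% and 0.75%, Rexo4 between 0.749% and 1.14% and Eri1 between 0.425% and 1.18%.

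**Figure D5:**
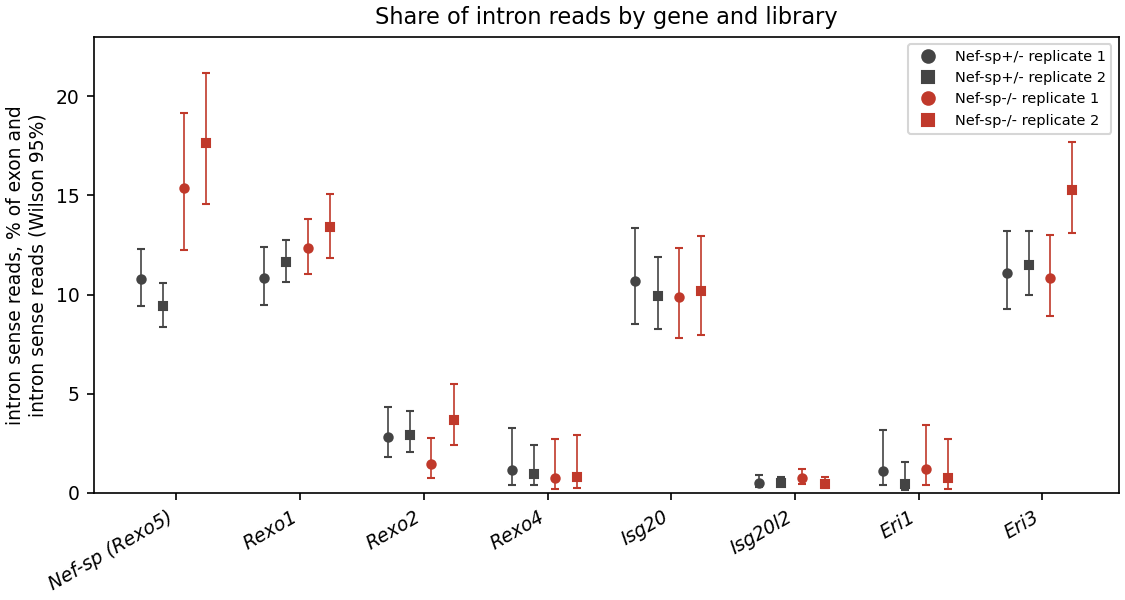
Intron sense reads as a percentage of exon and intron sense reads (y axis) for the 8 exonuclease genes with both kinds of reads (x axis), by library, with Wilson 95% intervals as bars. For Nef-sp, the Nef-sp-/- libraries (red) are at 15.4% and 17.6% and the Nef-sp+/- libraries (grey) at 10.8% and 9.42%, and among the other genes Eri3 in Nef-sp-/- replicate 2 is at 15.3%.

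Antisense reads of these genes were few. Exod1 exons had 8 and 9 antisense reads in Nef-sp+/-, against 0 and 1 in Nef-sp-/-. Pooled, these were 17 of 425749 exon antisense reads against 1 of 321423, a ratio of 0.0779 (exact 95% interval 0.00186 to 0.497, counting error only), and the exact two-sided permutation test over the libraries gave p = 0.333, the smallest it can give. The row did not pass the filter, and without the filter edgeR's quasi-likelihood test gave an adjusted p of 0.714. A read antisense to Exod1 lies on the strand of Nef-sp and of Acsm3, an acyl-CoA synthetase gene. The exons of Acsm3 share 1962 of the 7170 exon bases of Exod1, and Acsm3 was not listed among the exon sense features. Where in Exod1 these antisense reads lay was not tested. Rexo1 had 13 and 35 exon antisense reads in Nef-sp+/-, against 15 and 27 in Nef-sp-/-, and 121 and 236 intron antisense reads against 138 and 135. The corresponding log2 fold changes of Rexo1 were 0.26 (adjusted p = 0.996) and 0.02 (adjusted p = 0.993) by edgeR's quasi-likelihood test. Exod1 had at most 3 intron antisense reads in a library, and so did Eri1.

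Other nucleases of the wider DEDD group, a list of 12 genes that includes deadenylases and DNA exonucleases, showed no called change. Of the 9 tested, edgeR and DESeq2 called 0, and 0 had an unadjusted p below 0.05. Their median exon sense log2 fold change was -0.02, and 4 of the 9 did not overlap between genotypes, read against the 34.5% of all exon sense features. The smallest p among them was that of Pan2, listed as Usp52, the catalytic subunit of a poly(A) nuclease. Its normalized counts were 546 and 523 in Nef-sp+/-, against 499 and 470 in Nef-sp-/-, with a log2 fold change of -0.14 (SE 0.0776, unadjusted p = 0.105 and adjusted p = 0.954 by edgeR's quasi-likelihood test). Exd2, listed as Exdl2, had a log2 fold change of -0.10 (SE 0.0771), and the deadenylase subunit Cnot7 one of 0.07 (SE 0.0598). Trex1, a DNA exonuclease, had 5 and 4 reads in Nef-sp+/- and 1 read in each Nef-sp-/- library and was not tested.

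None of the tested genes around Nef-sp was called. Of 16 listed neighbors, 4 were tested, 0 were called by edgeR or DESeq2 and 0 had an unadjusted p below 0.05. Thumpd1 had a log2 fold change of -0.02 (SE 0.0812), Dcun1d3 of 0.07 (SE 0.0692), Lyrm1 of 0.09 (SE 0.0671) and Tmem159 of -0.04 (SE 0.174). Dcun1d3, which ends 4219 bases from the end of Nef-sp on the opposite strand, had 2063 and 3775 exon sense reads in Nef-sp+/-, against 2357 and 2179 in Nef-sp-/-.

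Isg20 and Aen belong to the interferon and the p53 responses, so that further genes of these were listed. Of 14 interferon-stimulated genes, 2 were tested and 0 called by edgeR or DESeq2. Stat2, a transcription factor of the interferon response, had 12 and 21 reads in Nef-sp+/-, against 5 and 6 in Nef-sp-/-, with a log2 fold change of -1.15 (SE 0.416, unadjusted p = 0.0188 and adjusted p = 0.954 by edgeR's quasi-likelihood test). Of 12 p53 targets, 8 were tested, 0 were called by either tool and 0 had an unadjusted p below 0.05. Their median log2 fold change was -0.07 and their range -0.41 to 0.35. The p53 target Mdm2, a ubiquitin ligase for p53, had one of -0.08 (SE 0.0614).

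The pattern most like that of Nef-sp over the 4 libraries was shared by weakly expressed genes. Likeness was measured as the distance between log2 normalized exon sense counts, centered on each gene's mean. The median distance of all other features to Nef-sp was 1.99, and a flat pattern over the libraries also lay at 1.99. Hlcs, the biotin ligase, was nearest at 0.622, and its normalized counts were 16.1 and 15.5 in Nef-sp+/-, against 4.62 and 7.10 in Nef-sp-/-. Stat2 followed at 0.888 with 13.8 and 14.8 against 5.77 and 7.10, and the Wnt receptor gene Fzd4 at 0.888 with 14.96 and 13.4 against 5.77 and 7.10. These genes had few reads, and the adjusted p of each was 0.954 by edgeR's quasi-likelihood test.

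As ribosomal and transfer RNAs are substrates of several DEDDh enzymes, the repeat-annotated sense features of these classes were read beside the exonucleases. Of 17 listed, 8 were tested. Of these, edgeR and DESeq2 called 0, against 0.692% called by edgeR over all repeat sense features. By edgeR's quasi-likelihood test, 2 of the 8 had an unadjusted p below 0.05, and the matching share over all repeat sense features is not given here. Their median log2 fold change was -0.11, compared with 0.01 over all repeat sense features. The smallest adjusted p, 0.744 by edgeR's quasi-likelihood test, was that of the 5S rRNA feature, whose normalized counts were 249 and 448 in Nef-sp+/-, against 273 and 207 in Nef-sp-/-, with a log2 fold change of -0.56 (SE 0.221). The Nef-sp+/- libraries were further apart than the means of the genotypes, and the libraries had been depleted of ribosomal RNA.

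Cell type markers showed the tissue to be testis. The 7 germ cell markers were all tested, and their normalized counts summed to between 160607 and 181527 in Nef-sp+/- and between 183910 and 187617 in Nef-sp-/-. Most of this sum came from the spermatid genes Prm1 and Tnp1, with log2 fold changes of 0.12 and 0.18, while Ddx4 and Piwil1 were at -0.05 and -0.14, and the median of the list was 0.05. The 4 Leydig cell markers summed to between 14217 and 14805 against between 11790 and 14007, with Cyp17a1 at -0.27 but Star at 0.08, Insl3 at 0.18, Hsd3b6 at 0.01 and a list median of 0.05. The 2 Sertoli cell markers tested of 4 summed to between 590 and 673 against between 584 and 589 (median -0.18), and the 3 myoid markers to between 1257 and 1294 against between 1107 and 1220 (median -0.07). The 2 blood markers tested of 3 summed to between 213 and 232 against between 241 and 254, higher in Nef-sp-/-, with Alas2 at 0.23 and Hbb-b1 at -0.75. The summed levels of these 5 lists did not overlap between genotypes, and those of the macrophage markers did. Sums of the lists of neighbors of Nef-sp, interferon-stimulated genes and p53 targets did not overlap either, and that of the DEDD nucleases did. The share of sums of other genes that do not overlap was not determined. The 34.5% of exon sense features is a share of single features and not of sums. The Sertoli cell sum came mostly from Wt1 and the blood sum mostly from Alas2. Whether cell composition differed between the genotypes was not tested, nor was its part in the Nef-sp result. Macrophage markers, with 2 of 3 tested, had a median log2 fold change of 0.00. The epididymis marker Crisp1 had 5 reads in Nef-sp-/- replicate 1 and 0 in the other libraries. In these lists edgeR and DESeq2 called 0 genes, and Tnp1 and the Leydig cell gene Cyp17a1 were those with an unadjusted p below 0.05.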

How the data were processed

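Total testicular RNA was depleted of ribosomal RNA and made into stranded libraries, which were sequenced for 50 cycles. Reads that matched mm9 perfectly were kept by the authors, who deposited unnormalized read counts per feature, category and strand. Listed features had at least 5 reads over the 4 libraries. How multi-mapping reads were counted, and on which gene annotation, is not given in the sources used here. Columns with the authors' mean normalized signal, fold change, p-value and adjusted p-value of a DESeq2 comparison were not used.

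From the counts, each category with at least 20 features past the edgeR filter (minimum count 10) was normalized by TMM and fitted with the quasi-likelihood test of edgeR 4.0.16 (R 4.3.3), with Benjamini-Hochberg adjustment within the category and a threshold of 0.05. Exon and intron reads were compared by the interaction of genotype and category, with library as a term. The edgeR tests of exon reads, of intron reads and of their difference were checked on simulated data. In the data simulated for each test, 50 genes were changed by each of 0.5, 0.75, 1 and 2 log2. Of the 50 genes changed by 0.75 log2, the tests recovered 39, 20 and 19. The intron and difference tests thus missed most changes of that size. A gene changed alone was not simulated, so these shares do not give the recovery of a single changed gene. Among all calls, over all sizes of change, 8, 6 and 7 were of unchanged genes. DESeq2 1.42.0 and other settings were alternatives. Transcript lengths and positions come from GENCODE vM1 on mm9, promoters from RefSeq on GRCm38.p6. Distances between patterns used a pseudocount of 0.5.

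The members and lists were chosen with earlier results of these data known. Named are all 10 members, called members of the lists, the 3 other DEDD nucleases with the smallest p, and the 3 genes nearest to Nef-sp in pattern. Other genes of the lists were named after their values were seen.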

Additional observations from a re-analysis of the deposited data

How the results depend on the processing

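The fall of Nef-sp exon sense reads was called in all 13 alternative fits, with log2 fold changes of -2.11 to -1.83. Intron sense reads of Nef-sp had log2 fold changes of -1.16 with library sizes over all categories (adjusted p = 0.0804), -1.19 without a filter (adjusted p = 0.470), -1.19 with DESeq2 (adjusted p = 0.0608) and -1.14 in a single fit over all categories (adjusted p = 0.520), and with each of these 4, edgeR or DESeq2 called 0 exonuclease genes. The cause was not tested, except that more features were tested without a filter and in the single fit. With single libraries left out, the intron value was -1.38 to -1.02 and stayed called. The number of exon sense features called was 2 with DESeq2 and 1 to 252 with single libraries left out, where the lone library of a genotype is assumed to vary like the others. The exon minus intron difference was -0.83 to -0.73 over 9 alternatives and was not called in any, with adjusted p of 0.128 to 0.9999 from edgeR or DESeq2.

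When the replicate number entered as a block, the log2 fold change of Nef-sp was -1.97 in exons and -1.18 in introns, both called, and no call of an exonuclease gene changed. The labels do not say what a number marks, and deviations of same-numbered libraries had correlations of -0.08 (exon) and -0.14 (intron). A block with the numbers crossed, added after seeing this, called 99 exon sense features.

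Directions of the uncalled genes turned as follows. Rexo4 exons were at 0.000467 with the size factors of DESeq2 in edgeR and at 2.76e-05 with DESeq2. Without TMM, Isg20 exons were at -0.017 and Isg20l2 exons at -0.00315, and in the single fit Isg20 was at -0.00270. With single libraries left out, exon values ran from -0.10 to 0.11 for Isg20, -0.13 to 0.020 for Aen, -0.19 to 0.12 for Rexo1, -0.049 to 0.045 for Rexo4, -0.11 to 0.17 for Isg20l2 and -0.053 to 0.18 for Exod1. Intron values ran from -0.12 to 0.40 for Rexo1, -1.01 to 0.14 for Rexo2, -0.28 to 0.52 for Isg20l2, -0.25 to 0.066 for Isg20 and -0.11 to 0.35 for Eri3. None of these was called. The 95% intervals given with the genes bound the differences that 2 libraries a genotype leave possible. The level of Nef-sp with the mean transcript length, 45.2 RPKM, was added after the levels were seen.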
